A study of Mus musculus with 6 samples.

Results

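Removal of the histone demethylase Kdm4a (Jmjd2a) from the heart was examined on 4 of the 6 arrays of a mouse heart expression study: the 4 arrays whose titles name the heart-specific Jmjd2a knockout (KO) or its wild type (WT). They hold 1 female and 1 male KO heart and 1 female and 1 male WT heart, each KO paired with the WT of the same sex. All 6 hearts of the study were adult, and their total RNA was measured on Illumina bead arrays, 1 colour and 1 array per heart. The other 2 arrays hold a general Jmjd2a KO and its WT, without a stated sex, and are used below only for comparison. The sources used here do not give the promoter or Cre line behind the heart-specific deletion, the strain, the exact age or whether animals were pooled. Of 19057 genes with a named probe, 10598 lay above background on at least 2 of the 4 arrays and were compared, each through its brightest probe.

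Kdm4a removes methyl groups from lysines 9 and 36 of histone H3. The first of these marks is found in silenced chromatin and the second along transcribed genes, and the enzyme is also known as a partner of corepressor complexes. In the heart it has been studied in the response to pressure load. A bulk heart sample mixes cardiomyocytes with endothelial cells, fibroblasts, macrophages and blood, so a lower signal from fewer cells of a type cannot be told apart from a lower signal from less RNA per cell.

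Values are the authors' normalized intensities, on a linear scale that still holds a background of about 107, so that the differences of dim genes are understated. The level taken as background was 121 to 124 on the 6 arrays, and 40.4% to 43.4% of the 45281 probes exceeded it. The sexes in the titles could be checked: a probe of Xist, the RNA of the inactive X chromosome, read 961 and 954 in the female WT and KO and 104 and 114 in the male WT and KO, while the Y-linked Eif2s3y read 98 and 104 in the females and 1830 and 917 in the males. The genotypes could not be checked. The brightest of 3 Kdm4a probes read 119 in the female WT, 107 in the female KO, 123 in the male WT and 114 in the male KO, above background on 1 of the 4 arrays, and it is not known whether any probe lies in the deleted part. None of the 11 cardiomyocyte markers with a probe was below background on all 4 arrays. Some markers of lung (Sftpa1, Sftpb, Sftpc), fat (Adipoq, Plin1) and fast skeletal muscle (Myh1, Myh4) were below it on all 4 arrays. Other members of these lists were not: 1 of 7 lung, 3 of 11 fat and 6 of 13 skeletal muscle markers with a probe exceeded background on at least 2 arrays. Nothing in the labels states that hearts came from separate animals beyond their sexes. The p-values then describe the spread among these arrays only, and part of that spread may be technical. No label gives a batch or a scan date.

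Across all genes the KO hearts of the female and the male pair differed from their WT with little relation between the pairs. The difference (log2 KO minus WT) had the same sign in both pairs for 5361 of 10598 genes (50.6%): 2594 were higher in both pairs (24.5%) and 2767 lower in both (26.1%). Both KO arrays lay above both WT arrays for 1457 genes (13.7%) and below both for 1655 (15.6%). Across genes, which are not independent replicates, Pearson's r between the differences of the female and the male pair was -0.002. A difference of at least 1 was found in 22 genes in the female pair and 63 in the male pair, but only 4 genes reached it in the same direction in both pairs: Nudt6, Zfp330 and Ccdc124 upward and Hspb7 downward. At a size of 0.5 in both pairs there were 18 genes higher and 18 lower. The median difference over all genes was -0.0056 in the female pair and -0.0029 in the male pair.

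In the test of KO against WT with the pair as a term (limma, Benjamini-Hochberg adjustment over all 10598 genes), 0 genes passed an adjusted p of 0.05 (0%). At an unadjusted p under 0.05 there were 459 genes, where an even spread of p-values gives 529.9. The smallest adjusted p was that of Hspb7, a small heat shock protein of heart muscle (limma adjusted p = 0.228), which read 3947 in the female WT, 430 in the female KO, 2770 in the male WT and 564 in the male KO. With the pair kept as a term, Hspb7 passed when every gene was read as the mean of its kept probes (limma adjusted p = 0.0457). It also passed with an intensity trend (0.0170). Hspb7 has 1 kept probe, so its own difference of -2.75 was the same in both settings. Over all alternatives its adjusted p ran from 0.0170 to 0.967. The values below therefore describe these 4 hearts. The genes they name were ranked by the smaller of the differences in the female and the male pair, which is the same measurement, so their size supports nothing further.

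**Figure D1:**
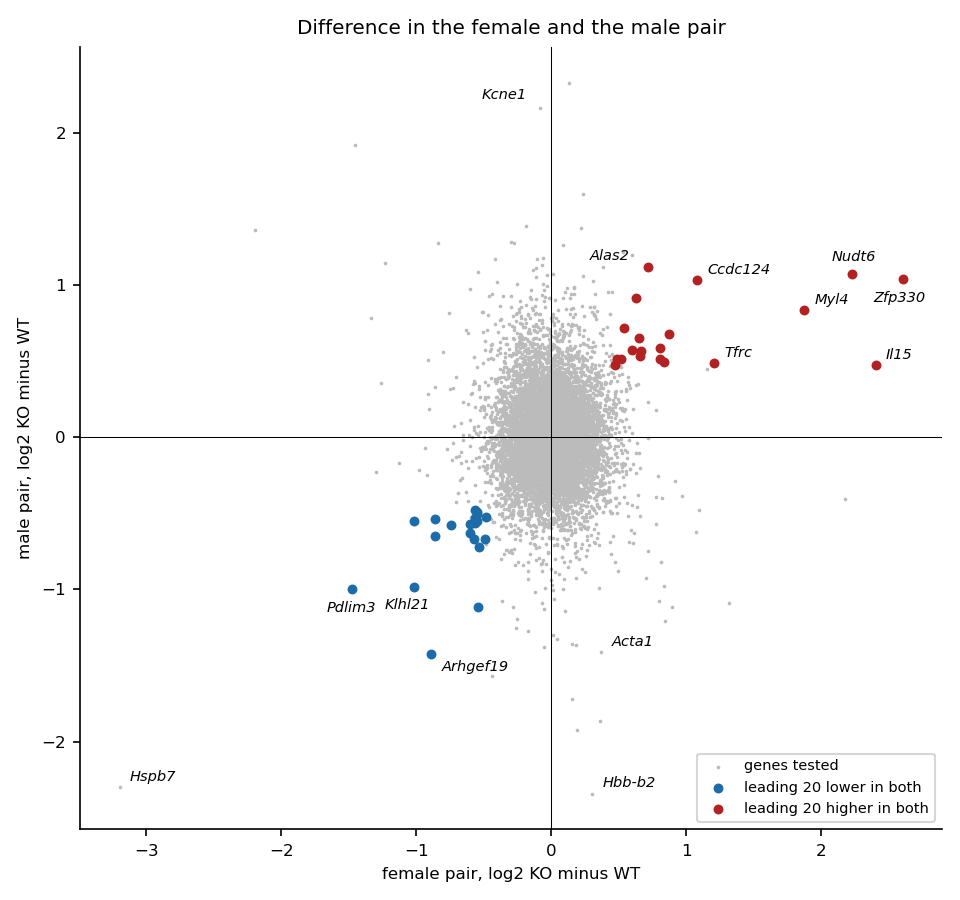
Difference between knockout and wild type (log2 KO minus WT) of each of 10598 genes in the female pair (horizontal) and the male pair (vertical). The cloud is round, with r of -0.002; the 20 leading genes per direction (red, higher in both; blue, lower in both) and Hspb7 lie outside it, while Acta1, Hbb-b2 and Kcne1 differ in the male pair alone or in opposite directions.

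Beyond Hspb7, the genes that were lowest in both KO hearts included Pdlim3, whose product binds alpha-actinin at the muscle Z-disc. Its intensity was 2796 in the female WT and 1004 in the female KO, and 1802 in the male WT and 903 in the male KO. Both KO hearts lay below both WT hearts, and a second Pdlim3 probe gave the same order, with 639 and 269 in the females and 572 and 234 in the males. The difference was -1.24 ± 0.34 (SD, n = 2 pairs; limma adjusted p = 0.724). Klhl21, a substrate adaptor of Cul3 ubiquitin ligases known in human cells for its part in cell division, read 1253 in the female WT and 619 in the female KO, and 1234 in the male WT and 625 in the male KO. The levels were nearly the same in both sexes (-0.999 ± 0.03, SD, n = 2 pairs; limma adjusted p = 0.724). The general pair gave 1144 in its WT and 637 in its KO, so Klhl21 split all 3 pairs by genotype at nearly the same levels. Arhgef19, a guanine nucleotide exchange factor, read 261 in the female WT, 141 in the female KO, 392 in the male WT and 146 in the male KO. Its KO signals lay close to background, and both general hearts were as low (149 in the WT, 144 in the KO), so for Arhgef19 the heart-specific WT arrays were the ones that stood apart.

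The promoters of 4 of these genes are printed because the comparison turns on them: Klhl21 and Mrps27 differed alike in all 3 pairs, and Pdlim3 and Ppargc1a were lower in both heart-specific KO hearts and higher in the general KO. Each is 300 bases around an annotated transcript start in RefSeq GRCm38.p6; that of Ppargc1a is internal to the annotated gene, which spans 51454249 to 52115853. They are written 5′ to 3′ on the gene's strand, and capitals mark a motif match on either strand. The search covered the E-box CACGTG, the cAMP response element TGACGTCA, the oestrogen-related receptor motif AAGGTCA, the GATA factor motif AGATAA, the ETS factor motif CCGGAAG and the MEF2 site, and no matches overlapped here.
Klhl21, chr4:152008641-152008940, plus strand: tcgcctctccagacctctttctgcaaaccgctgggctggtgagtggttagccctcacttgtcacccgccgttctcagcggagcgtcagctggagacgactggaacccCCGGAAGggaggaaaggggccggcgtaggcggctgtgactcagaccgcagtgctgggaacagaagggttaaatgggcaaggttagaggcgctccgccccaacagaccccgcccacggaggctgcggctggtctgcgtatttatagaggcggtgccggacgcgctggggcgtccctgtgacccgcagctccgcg
Pdlim3, chr8:45885237-45885536, plus strand: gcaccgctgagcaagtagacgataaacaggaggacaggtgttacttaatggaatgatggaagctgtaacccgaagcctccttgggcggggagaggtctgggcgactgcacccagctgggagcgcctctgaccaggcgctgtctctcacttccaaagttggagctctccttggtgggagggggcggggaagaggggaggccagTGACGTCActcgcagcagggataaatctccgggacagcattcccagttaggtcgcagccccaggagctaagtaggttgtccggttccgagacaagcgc
Ppargc1a, chr5:51567676-51567975, minus strand: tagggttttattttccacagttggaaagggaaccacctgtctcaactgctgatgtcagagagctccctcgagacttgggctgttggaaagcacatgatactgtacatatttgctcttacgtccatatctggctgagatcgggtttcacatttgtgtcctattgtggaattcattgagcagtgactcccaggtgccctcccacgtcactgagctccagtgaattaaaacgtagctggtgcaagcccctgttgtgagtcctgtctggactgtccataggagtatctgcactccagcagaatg
Mrps27, chr13:99344536-99344835, plus strand: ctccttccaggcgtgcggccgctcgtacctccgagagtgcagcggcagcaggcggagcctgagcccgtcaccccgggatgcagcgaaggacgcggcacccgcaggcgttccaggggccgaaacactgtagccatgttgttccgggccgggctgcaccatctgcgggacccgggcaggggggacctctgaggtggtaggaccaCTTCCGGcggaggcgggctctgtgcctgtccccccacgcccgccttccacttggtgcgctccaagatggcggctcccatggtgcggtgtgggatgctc
CCGGAAG was found in the Klhl21 promoter and, on the reverse strand, in that of Mrps27, and 17.8% of the 8563 promoters of tested genes hold it. TGACGTCA was found in the Pdlim3 promoter and in 3.23% of all. None of the 6 motifs was in the Ppargc1a window. Their GC content was 65.3% in Klhl21, 59.7% in Pdlim3, 48.7% in Ppargc1a and 70.3% in Mrps27. Among promoters of genes with both KO above both WT, CCGGAAG was in 19.6%, and among those with both KO below both WT in 18.5%. CACGTG was in 8.64% and 12.4% of these sets, beside 10.3% of all.

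Ppargc1a, the coactivator PGC-1 alpha that drives mitochondrial and fatty acid oxidation genes, read 1063 in the female WT and 634 in the female KO, and 1166 in the male WT and 783 in the male KO. Both KO hearts were lower than both WT hearts (-0.66 ± 0.12, SD, n = 2 pairs; limma adjusted p = 0.970), while in the general pair the KO was higher (421 in the WT, 730 in the KO). Its relatives pointed the other way. Ppargc1b (PGC-1 beta) read 2145 and 3185 in the female WT and KO and 1864 and 2450 in the male WT and KO. Pprc1, the third family member, read 243 and 294 in the females and 238 and 313 in the males. Of the 17 measured coactivators and nuclear receptor partners, 3 were higher in both pairs (17.6%, beside 24.5% of all genes) and 6 lower (35.3%, beside 26.1%). Among the lower was the retinoid receptor Rxrg (-0.10 and -0.44). The list medians of -0.04 and -0.03 lay close to that of all genes.

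Fatty acid uptake and oxidation was the pathway list with the lowest average median of the pairs. Of its 27 measured genes, 12 were lower in both pairs and 1 higher, beside 26.1% and 24.5% of all genes, and 9 had both KO below both WT and 0 both above (33.3% and 0%, beside 15.6% and 13.7% of all genes). The list median was -0.16 in the female pair and -0.19 in the male pair, and in the general pair the median was 0.13. Decr1, which reduces unsaturated fatty acyl intermediates, read 1291 in the female WT, 1041 in the female KO, 1664 in the male WT and 1077 in the male KO. The fatty acid transporter Slc27a1 read 646 and 506 in the females and 520 and 412 in the males, and Cpt2, the inner membrane carnitine palmitoyltransferase, read 10642 and 8911 in the females and 12345 and 9331 in the males. In each of these genes both KO hearts were the lower ones on the brightest probe, and 2 of the 3 kept Cpt2 probes went the same way in both pairs. The acyl-CoA thioesterase Acot1, which has near-identical relatives, read 2018 and 1442 in the females and 1268 and 883 in the males, so its groups overlapped. Acadl, the long-chain dehydrogenase, was the member higher in both pairs (0.14 and 0.11), though 1 of its 3 kept probes alone went the same way in both. Pdk4, the kinase that restrains pyruvate dehydrogenase, differed by -0.80 in the female pair and 0.56 in the male pair.

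The tricarboxylic acid cycle had 9 of 20 measured genes lower in both pairs (45.0%, beside 26.1% of all genes) and 2 higher (beside 24.5%), with 5 below (25.0%, beside 15.6%) and 1 above (beside 13.7%) without overlap, but its median was 0.0083 in the female pair and -0.22 in the male pair. Idh3a, a subunit of isocitrate dehydrogenase, read 6223 and 5126 in the female WT and KO and 7208 and 5271 in the male WT and KO. The succinyl-CoA ligase subunit Sucla2 differed by -0.26 and -0.37. Sdha was below background in both KO hearts (109 and 108) and at least 1.10-fold higher in WT (125 and 145). The limma adjusted p was 0.970 for the measured difference. The female WT reading was close to the background level of 124 on that array. So dim a signal says little about the amount of Sdha RNA. Glucose transport and glycolysis had 8 of 17 genes lower in both pairs (47.1%, beside 26.1% of all genes) and 1 higher (5.88%, beside 24.5%). Without overlap only 2 lay below (11.8%, beside 15.6%) and 0 above (beside 13.7%). The median was again near 0 in the female pair (-0.02 and -0.22). Pfkfb2, the cardiac regulator of phosphofructokinase, read 1455 and 1337 in the females and 1804 and 891 in the males, with 1 of 2 kept probes lower in both pairs. Triglyceride turnover was mixed. Pnpla2, the main triglyceride lipase, differed by -0.17 and -0.22 and Gpam, which starts glycerolipid synthesis, by -0.17 and -0.93. Pnpla3, a lipid droplet protein, was higher in both KO hearts: 131 and 203 in the female WT and KO and 413 and 780 in the male WT and KO, with the male WT above the female KO.

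Genes of respiratory complex I and of the ribosomes had list medians of opposite sign in the female and male pairs. Of 33 measured complex I genes, 11 were higher in both pairs (33.3%, beside 24.5% of all genes) and 3 lower (9.09%, beside 26.1%), with 8 above (24.2%, beside 13.7%) and 0 below (beside 15.6%) without overlap, yet the median was -0.03 in the female pair and 0.22 in the male pair. Ndufb3 read 3895 and 5521 in the female WT and KO and 4059 and 5402 in the male WT and KO, and Ndufb7 read 2248 and 2887 in the females and 1638 and 2632 in the males. Of 46 cytosolic ribosomal proteins, 13 were higher in both pairs (28.3%, close to 24.5% of all genes) and 3 lower (6.52%, beside 26.1%). Without overlap 10 lay above (21.7%, beside 13.7%) and 1 below (2.17%, beside 15.6%). Their medians of -0.08 and 0.40 gave the widest gap between the pairs of any pathway list. Rpl28 was alike in both (0.44 and 0.43), whereas Rps26 differed by -0.05 and 0.97. Ribosomal protein genes have many processed copies, so their probes may read more than 1 locus. Of 71 mitochondrial ribosomal proteins, 20 were higher in both pairs (28.2%, close to 24.5% of all genes) and 11 lower (15.5%, beside 26.1%). Without overlap 14 lay above (19.7%, beside 13.7%) and 10 below (14.1%, beside 15.6%). Their medians were -0.06 and 0.23. Mrps27, of the small mitochondrial subunit, read 188 and 285 in the female WT and KO and 196 and 292 in the male WT and KO, and the general pair gave 195 in its WT and 302 in its KO. All 3 KO hearts were thus at 285 to 302 and all 3 WT hearts at 188 to 196, a difference of 0.58 ± 0.02 in the heart-specific line (SD, n = 2 pairs; limma adjusted p = 0.970). On their brightest probes Mrpl47 differed by 0.36 and 0.37, and Mrpl3 by -0.31 and -0.46, but 1 of 2 kept Mrpl47 probes and 1 of 3 kept Mrpl3 probes went the same way in both pairs.

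**Figure D2:**
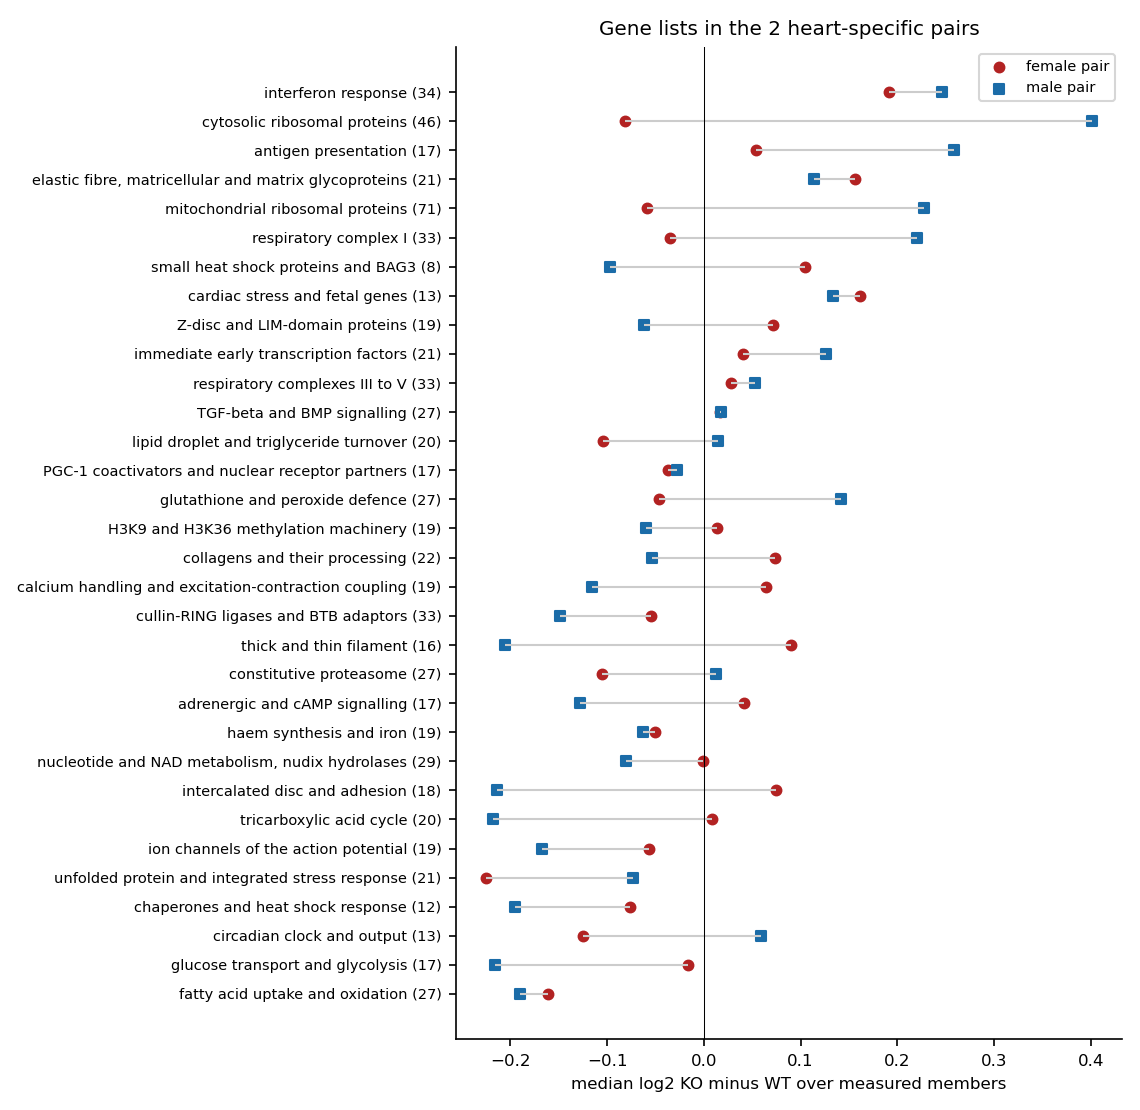
Median difference (log2 KO minus WT) over the measured members of each gene list reported, in the female pair (red circles) and the male pair (blue squares), with the number of members in brackets and lists ordered by the median of the mean of both pairs. The interferon and matrix glycoprotein lists lie right of 0 in both pairs, fatty acid oxidation and the unfolded protein response left of 0, and the ribosomal and complex I lists differ between the pairs.

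The lists of the unfolded protein response, of chaperones and of action potential channels had medians below 0 in both pairs, whereas those of small heat shock proteins (0.10 and -0.10) and calcium handling (0.06 and -0.12) changed sign between the pairs. In the unfolded protein and integrated stress response, 8 of 21 genes were lower in both pairs (38.1%, beside 26.1% of all genes) and 3 higher (14.3%, beside 24.5%), with 5 below (23.8%, beside 15.6%) and 2 above (9.52%, beside 13.7%) without overlap, and medians of -0.22 and -0.07. The endoplasmic reticulum chaperone Calr read 1012 and 777 in the female WT and KO and 832 and 677 in the male WT and KO. Dnajb9, a luminal co-chaperone, read 2302 and 1926 in the females and 2008 and 1297 in the males, and Herpud1, of the degradation pathway of that compartment, 11714 and 9842 in the females and 10283 and 8621 in the males. All 3 genes had both KO hearts below both WT hearts. Of 12 cytosolic and mitochondrial chaperones, 5 were lower in both pairs (41.7%, beside 26.1% of all genes) and 1 higher (8.33%, beside 24.5%), with Hsph1 at -0.16 and -0.76. Their summed intensity was 41664 and 44261 in the females and 51151 and 42224 in the males. Ion channels of the action potential had 7 of 19 genes lower in both pairs (36.8%, beside 26.1% of all genes) and 1 higher (5.26%, beside 24.5%), with 5 below (26.3%, beside 15.6%) and 0 above (beside 13.7%) without overlap and medians of -0.06 and -0.17. Their summed intensity was 29634 and 31140 in the females and 38288 and 31814 in the males. Hcn2, a pacemaker channel, read 637 and 400 in the females and 726 and 597 in the males, and the background potassium channel Kcnk3 1191 and 936 in the females and 1011 and 771 in the males. Kcne1, a regulatory subunit of the slow delayed rectifier, was an exception seen in the males alone, with 394 in the WT and 1770 in the KO, beside 1325 and 1253 in the females.

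The remaining leading lower genes span several roles. Cd300lg, a receptor of capillary endothelium, read 858 and 473 in the female WT and KO and 686 and 437 in the male WT and KO, without overlap, although a second probe was lower in the female pair alone (-0.39 and 0.05). The carbonic anhydrase Car4, another capillary marker, differed by -0.59 and -0.15. Of the 20 measured endothelial markers 5 were lower in both pairs, a share close to the 26.1% of all genes. Only 2 were higher in both pairs, beside 24.5% of all genes. Fabp4, also on that list, was below background on all 4 arrays. The measured endothelial markers had a summed intensity of 25976 and 23883 in the females and 25178 and 27671 in the males. Their part in the Cd300lg value was not tested. Ctnnal1 (alpha-catulin), related to the alpha-catenins of cell junctions, read 1242 and 837 in the females and 1047 and 660 in the males. Riok3, an atypical protein kinase, read 1926 and 1321 in the females and 2815 and 1301 in the males, and its 3 kept probes were all lower in both pairs. The secreted glutathione peroxidase Gpx3 read 1792 and 1277 in the females and 1501 and 945 in the males, and Cish, an inhibitor of cytokine receptor signalling, 5728 and 3873 in the females and 6957 and 4992 in the males. Each of these genes had both KO hearts below both WT hearts on its brightest probe.

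Further genes with non-overlapping groups and differences between -0.51 and -0.86 were Sub1, a transcription coactivator (-0.60 and -0.63), Yipf4, a protein of the early secretory pathway (-0.57 and -0.56), Acer2, a Golgi ceramidase (-0.86 and -0.54), Cyria, a regulator of Rac1 signalling (-0.54 and -0.72), the chromatin remodeller Chd6 (-0.56 and -0.53) and the Rap exchange factor Rapgef2 (-0.55 and -0.51). Cdc37l1, related to the Hsp90 co-chaperone Cdc37, differed by -0.55 and -0.55, but only 2 of its 4 kept probes were lower in both pairs. The lysosomal protease Ctsl was below background in both KO hearts (117 and 117, against 171 and 164 in the WT hearts), which makes WT at least 1.37-fold higher (limma adjusted p = 0.970 for the measured difference). Dct, an enzyme of melanin synthesis, differed by -0.60 and -0.57 with the male KO below background, and the neural crest gene Sox10 by -0.21 and -0.26, also with the male KO below background. Of the 7 measured Schwann cell and neural markers, 4 were lower in both pairs (57.1%, beside 26.1% of all genes) and 2 higher (28.6%, beside 24.5%). Their summed intensity was 1035 to 1182 on the 4 arrays, and S100b, Th, Tubb3 and Snap25 were below background on all of them. Their part in the result for Dct was not tested. Nipsnap2, a mitochondrial protein, was lower in both pairs with overlapping groups: 2506 and 1238 in the females and 4032 and 2749 in the males.

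Regulatory lists gave small counts in both directions, to be read beside 24.5% of all genes higher and 26.1% lower in both pairs. Among the 29 measured genes of nucleotide and NAD metabolism, 9 were lower in both pairs (31.0%) and 4 higher (13.8%). Nampt, the rate-limiting enzyme of NAD salvage, read 1459 and 1082 in the female WT and KO and 1097 and 746 in the male WT and KO, and Nnt, the mitochondrial transhydrogenase, 258 and 205 in the females and 276 and 212 in the males. Both were lower in both KO hearts without overlap on the brightest probe, but for each gene 1 of 2 kept probes was lower in both pairs. Of 13 clock genes, 4 were lower in both pairs (30.8%) and 2 higher (15.4%). The output factor Tef differed by -0.43 and -0.56, the activator Rora by -0.29 and -0.42 and the repressor Nr1d2 by -0.22 and -0.38. Nr1d1 differed by 0.21 and 0.31. For Tef, 1 of 2 kept probes was lower in both pairs. In the H3K9 and H3K36 methylation machinery, to which Kdm4a belongs, 5 of 19 genes were higher in both pairs (26.3%) and 6 lower (31.6%). The H3K36 demethylase Kdm2a read 781 and 1007 in the females and 882 and 1077 in the males, the H3K9 demethylase Kdm3a 590 and 496 in the females and 692 and 550 in the males, and the H3K36 methyltransferase Setd2 558 and 506 in the females and 632 and 472 in the males, with 1 of 3 kept Setd2 probes lower in both pairs. Of 33 cullin ligase genes, 12 were lower in both pairs (36.4%) and 7 higher (21.2%). After Klhl21 the leading members were Fbxo44, below background in both KO hearts (105 and 118) and at least 1.25-fold higher in WT (144 and 162; limma adjusted p = 0.970 for the measured difference), and the muscle adaptor Asb11 (-0.26 and -0.44). The TGF-beta co-receptor Tgfbr3 differed by -0.44 and -0.38, and 1 of its 2 kept probes was lower in both pairs. Its list of 27 had 7 higher (25.9%) and 4 lower (14.8%).

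Among the leading higher genes, 3 reached 1 in both pairs. Nudt6, a nudix hydrolase, read 158 in the female WT and 743 in the female KO, and 566 in the male WT and 1193 in the male KO (1.65 ± 0.82, SD, n = 2 pairs; limma adjusted p = 0.970). Ccdc124, a coiled-coil protein that binds ribosomes in human cells, read 358 and 758 in the females and 513 and 1051 in the males (1.06 ± 0.03, SD, n = 2 pairs; limma adjusted p = 0.724). Zfp330, a zinc finger protein, read 105 and 639 in the females and 515 and 1059 in the males, with the female WT below background. In all 3 genes both KO hearts were above both WT hearts, and the female WT was the lowest array. A second probe did not repeat 2 of them: for Ccdc124 it read 150 and 161 in the females and 200 and 192 in the males, and for Zfp330 it read 553 and 594 in the females and 538 and 530 in the males. Il15, a cytokine of lymphocyte survival, read 253 and 1338 in the females and 1187 and 1650 in the males, and its 3 kept probes were all higher in both pairs. In Zfp330 and Il15 the female WT and the general KO (111 and 343) were the low arrays, and the general WT (547 and 1013) was near the male WT, so low signals fell on different genotypes in the different lines.

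Some matrix genes were among those with higher signal. Of 21 elastic fibre, matricellular and matrix glycoprotein genes, 11 were higher in both pairs and 4 lower, beside 24.5% and 26.1% of all genes, with medians of 0.16 and 0.11. Without overlap 4 lay above (19.0%, beside 13.7% of all genes) and 3 below (14.3%, beside 15.6%), and the summed intensity was 35755 and 40630 in the females and 49242 and 47252 in the males. Mfap4, a microfibril protein, read 205 in the female WT, 375 in the female KO, 354 in the male WT and 565 in the male KO, and both general hearts were as low as the female WT (194 and 204). The small proteoglycan Bgn read 3568 and 4877 in the females and 3703 and 5413 in the males. Both genes had both KO hearts above both WT hearts, whereas Sparc, a matricellular glycoprotein (0.64 and 0.35, with 2 of 3 kept probes higher in both pairs), had overlapping groups, and Thbs2 differed the other way (-0.19 and -0.41). Mmp14, the membrane-anchored collagenase activator, read 206 and 325 in the females and 229 and 341 in the males. The collagen list was even: of 22 collagen genes and processing enzymes 5 were higher and 5 lower in both pairs (22.7% each, beside 24.5% and 26.1% of all genes). Its medians were 0.07 and -0.05. The fibroblast markers, of which all 14 were measured and none was at background on all arrays, had medians of 0.10 and -0.14 and a summed intensity of 25875 and 28240 in the females and 34446 and 28369 in the males. Their part in the Mfap4 and Bgn values was not tested.

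B2m, the light chain of class I antigen-presenting molecules, read 4646 and 6641 in the female WT and KO and 6020 and 8584 in the male WT and KO (0.51 ± 0.0025, SD, n = 2 pairs; limma adjusted p = 0.970). The KO hearts lay above both WT hearts, above both general hearts (4412 and 4848), and a second probe was higher in both pairs too. Of 17 antigen presentation genes, 9 were higher in both pairs (52.9%, beside 24.5% of all genes) and 1 lower (5.88%, beside 26.1%), with 6 above (35.3%, beside 13.7%) and 1 below (5.88%, beside 15.6%) without overlap. H2-D1 read 1060 and 1325 in the females and 1278 and 1776 in the males, and H2-Q7 differed by 0.44 and 0.36. Class I genes are similar enough in sequence that probes may read more than 1 of them. The interferon list had 24 of 34 higher in both pairs (70.6%, beside 24.5% of all genes) and 2 lower (5.88%, beside 26.1%). Aif1, a macrophage protein also called Iba1, read 140 and 204 in the females and 154 and 254 in the males, with both kept probes higher in both pairs, and the complement gene C1qa read 190 and 260 in the females and 249 and 295 in the males. Of 18 macrophage markers 5 were higher (27.8%, close to 24.5% of all genes) and 2 lower (11.1%, beside 26.1%) in both pairs, with 4 above (22.2%, beside 13.7%) and 0 below (beside 15.6%) without overlap, and the summed intensity was 14289 and 15845 in the females and 20470 and 20594 in the males. The T cell genes Cd3d, Cd3e, Cd3g and Cd8a were below background on all 4 arrays. The part of these cells in the B2m and class I values was not tested.

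The natriuretic peptide gene Nppa, made in atria and in strained ventricles, read 12345 and 21562 in the female WT and KO and 17782 and 25410 in the male WT and KO, with both KO above both WT (0.66 ± 0.20, SD, n = 2 pairs; limma adjusted p = 0.970). Nppb, its ventricular relative, read 5633 and 6231 in the females and 4992 and 7434 in the males, also without overlap. Myl4, the atrial essential light chain, read 295 and 1078 in the females and 309 and 552 in the males. In the general pair the order was the reverse for all 3 genes, with Nppa at 39341 in the WT and 18997 in the KO and Myl4 at 2385 and 311. Other stress genes did not share one direction: Ankrd1, a stretch-responsive repeat protein, differed by 0.44 and 0.13, the LIM protein Fhl1 by -0.15 and -0.40, Acta1, skeletal actin, by 0.37 and -1.41, and the myosin genes Myh7 by 0.16 and -0.38 and Myh6 by -0.02 and -0.25. A second Myh6 probe gave 0.77 and -1.06. Of 13 measured cardiac stress and fetal genes, which include Nppa, Nppb and Myl4 but not Myh6, 5 were higher in both pairs (38.5%, beside 24.5% of all genes). In that list 1 was lower (7.69%, beside 26.1%), and the medians were 0.16 and 0.13. Of 9 measured atrial markers, 5 were higher in both pairs (55.6%, beside 24.5% of all genes) and 3 lower (33.3%, beside 26.1%). Mybphl was among the lower (-0.39 and -0.13, below background in both males). Dkk3 was among the higher (0.28 and 0.13, with 1 of 2 kept probes higher in both), and Bmp10 was below background on all 4 arrays. The summed intensity of the atrial markers was 14372 and 24149 in the females and 19459 and 27315 in the males. Nppa belongs to this list and makes up most of each sum, so the sum largely repeats the Nppa values above. The part of atrial tissue in the Nppa and Myl4 values was not tested. Irx3, a transcription factor of the ventricular conduction system, read 547 and 956 in the females and 777 and 1169 in the males, and the conduction marker Tbx3 differed by -0.32 and -0.30, with 1 of its 3 kept probes lower in both pairs.

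Tfrc, Alas2 and Slc4a1 were higher in both pairs with overlapping groups. Tfrc, the transferrin receptor, read 1289 and 2970 in the female WT and KO and 5052 and 7083 in the male WT and KO, and a second probe gave 1231 and 2737 in the females and 5146 and 6575 in the males. The male hearts were higher than the female hearts in both genotypes, so the male WT exceeded the female KO. Alas2, which starts haem synthesis in red cell precursors, read 321 and 528 in the females and 721 and 1569 in the males, and the red cell anion exchanger Slc4a1 read 114 and 178 in the females and 209 and 328 in the males. The female WT of Slc4a1 was below background. Of the globins, Hba-a1 was higher in both pairs (0.31 and 0.10), and Hbb-b2 read 965 and 1188 in the females but 979 and 193 in the males. Of 4 measured red cell markers 3 were higher in both pairs (75.0%, beside 24.5% of all genes), and Epb42 and Hemgn were below background on all 4 arrays. The summed intensity was 35503 and 44186 in the females and 42437 and 45599 in the males. The part of red cells in these values was not tested. Over the whole list of 19 haem and iron genes, 4 were higher in both pairs (21.1%, beside 24.5% of all genes) and 7 lower (36.8%, beside 26.1%).

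Signalling genes with higher signal included Pde4b, a cAMP phosphodiesterase, which read 513 and 808 in the females and 419 and 608 in the males, although a second, dim probe differed by -0.13 and 0.04. The kinase subunit Prkaca differed by -0.12 and -0.58 and its anchor Akap1 by -0.25 and -0.23, and the kinase inhibitor Pkig by 0.22 and 1.37. Of their kept probes, 1 of 2 for Prkaca, 2 of 3 for Akap1 and 3 of 4 for Pkig went the same way in both pairs. Camk2d, the main cardiac calmodulin kinase, read 426 and 598 in the females and 546 and 706 in the males on its brightest probe, but 3 of its 7 kept probes were higher in both pairs. The remaining leading higher genes had differences of nearly equal size in both pairs: Wdr83os, a subunit of a membrane protein insertion complex, 0.48 and 0.51, and Twistnb, a subunit of RNA polymerase I, 0.47 and 0.47 with both kept probes higher. Tmem51 differed by 0.84 and 0.49. Of the 20 leading genes per direction, 16 of the higher and 18 of the lower had non-overlapping groups, beside 13.7% and 15.6% of all genes. These genes were ranked on the same 4 arrays, which favours non-overlap, so the count is no further support. Of the 14 with several kept probes, 9 had all of them in the same direction in both pairs. Their limma adjusted p ran from 0.724 to 0.970.

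The general pair, which shares no array with the heart-specific line, mostly ran the other way for these genes. On their brightest probes, 16 of the 20 leading higher genes were lower in the general KO than in its WT and 4 were higher (Mfap4, Pnpla3, Mrps27 and B2m). Of the 20 leading lower genes 14 were higher and 6 lower, beside 53.8% higher and 46.0% lower over all genes. Mfap4 (194 in the general WT, 204 in the KO) and Pnpla3 (161 and 166) hardly differed in that pair. The second B2m probe was lower in the general KO (5629 in the WT, 4630 in the KO). Among all genes with both heart-specific KO above both WT, 54.9% were lower in the general KO, and among those with both KO below both WT, 60.5% were higher. Across genes Pearson's r with the general pair was -0.18 for the female and -0.08 for the male pair. When the general hearts were set beside the others, the heart-specific WT arrays lay beyond all 4 other arrays for 922 of 1655 genes with both KO below (55.7%) and the KO arrays for 500 (30.2%). For genes with both KO above, the shares were 43.2% and 41.9%. Among the named genes, Klhl21 and Ctsl met both descriptions. In the test of the difference of the KO effect between the lines (limma, 6 arrays), 2 of 10598 genes passed (0.0189%), at an adjusted p of 0.0495: Slc4a1, with 1296 in the general WT and 243 in the general KO, and the platelet chemokine Ppbp. The spread of this test comes from the heart-specific pairs, since the general line has 1 array per genotype, and 647 genes had an unadjusted p under 0.05.

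The places of the leading genes were examined after their values were seen. Chromosome 8 holds 569 of the tested genes (5.38%) but 10 of the 50 leading higher genes and 4 of the 50 leading lower ones, where 50 is counted without the exceptions made for naming. Among the higher are Zfp330, Ccdc124, Irx3, Wdr83os, Il15, Arv1, Ndrg4 and Bst2, and the lower include Pdlim3. Il15 and Zfp330 are next to each other in the order of tested genes. Over all chromosome 8 genes, however, 14.1% had both KO above both WT and 16.5% both below, close to 13.7% and 15.6% of all genes, and the median differences were -0.01 and -0.0083. With the background subtracted and a floor of 16, 5 of the 50 leading higher genes were on chromosome 8. Chromosome 4, which carries Kdm4a, held 6.10% of tested genes, 5 of the 50 leading higher and 7 of the 50 leading lower genes. Among them are Klhl21, Arhgef19, Acer2, Ctnnal1, Tmem51, Pde4b and Nppa, besides Hspb7. Arhgef19 starts at base 141239605 and Hspb7 at 141420779. With the mean of kept probes 10 of the 50 leading lower genes were on chromosome 4, and with the floor of 16 there were 8. With signal above background required on all 4 arrays there were 6, and without a filter or with quantile normalization 7. Over all chromosome 4 genes, 12.4% had both KO above both WT and 17.8% both below, beside 13.7% and 15.6% of all genes.

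**Figure D3:**
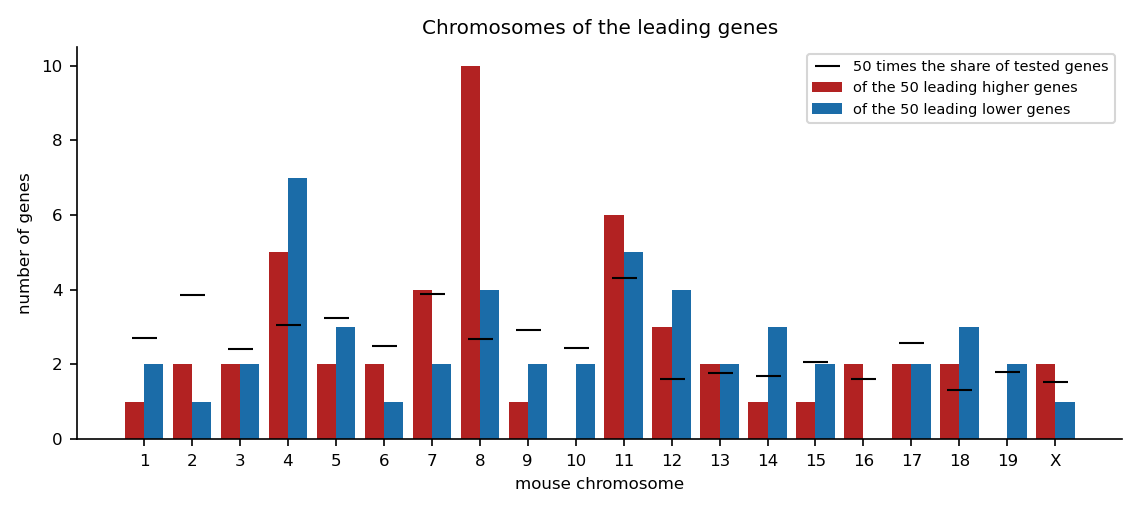
Number of the 50 leading higher (red) and 50 leading lower (blue) genes on each mouse chromosome, with a black bar at the number that the chromosome's share of the 10598 tested genes would give. Chromosome 8 holds 10 of the leading higher genes and chromosome 4 holds 7 of the leading lower genes.

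Several genes differed strongly in 1 pair or in opposite directions. Among muscle genes, Myl1, a fast light chain, read 1536 and 3821 in the female WT and KO and 8209 and 3856 in the male WT and KO, and Acta1 read 1398 and 1806 in the females and 4363 and 1639 in the males. In both genes the 2 KO hearts were close to each other, while the female WT was low and the male WT high. The 6 measured skeletal muscle markers had a summed intensity of 12263 and 15797 in the females and 24062 and 16129 in the males, with Tnnc2, Myh1 and Myh4 below background on all 4 arrays, and their part was not tested. The early response genes Fos (304 and 640 in the females, 262 and 170 in the males) and Egr1 (909 and 1277, 1581 and 860) also opposed. The 2 WT hearts were the least alike of the 4, with 160 genes differing by at least 1 between them, beside 22 in the female pair, 63 in the male pair and 49 between the KO hearts.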

How the data were processed

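Total RNA of adult mouse hearts was labelled as biotin cRNA and hybridised to single-colour Illumina bead arrays. The intensity values deposited by the authors were made with GenomeStudio, per the submitters' processing notes; version, background and normalization options are not stated there. The deposited intensity columns run from 82.48 to 50962.3, and their sorted values differ by at most 2.32% between the 6 arrays, so they were taken as normalized between arrays without background subtraction. The 12 columns of a second deposited table match no sample and were not used.

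Groups, sex and pairs come from the sample titles. A gene was named from the platform annotation (34885 probes with 1 gene, 18 with several, 10378 with none); 34807 probes matched GRCm38.p6, used only for symbols, gene order and promoters. Background was the 95th percentile of 1526 olfactory, vomeronasal and trace amine receptor probes of an array. A gene entered the tests if 2 or more of the 4 arrays exceeded it, and 3998 of 10598 had several kept probes. The number of arrays limits the precision.

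Differences are log2 of the deposited intensity, KO minus WT. Tests used R 4.3.3 and limma 3.58.1 (lmFit, eBayes, pair as a term, 1 residual degree of freedom, prior 4.85) with Benjamini-Hochberg adjustment over all genes, and were tested on simulated data. The members and lists were chosen with earlier results of these data known. Named were the stress genes Nppa, Nppb, Myh7, Myh6, Acta1, Fhl1 and Hspb7, the 20 genes per direction with the largest smaller difference of the pairs (leaving out 6: Hspb7, interferon genes and gene models), and up to 4 members per direction of each list; 1 list is not reported here. A fold is given as "at least" where a genotype was at or below background on both arrays, against the background level. Alternatives were no filter, other filters, other probe rules, background subtraction with floors of 16 and 50, quantile normalization, no pair term, an intensity trend and leaving out arrays or pairs.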

Additional observations from a re-analysis of the deposited data

Results flagged for a closer look

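The KO effect of the heart-specific line minus that of the general line passed the test of the difference in Ppbp (3.38, log2) and Slc4a1 (3.07, log2), both at a limma adjusted p of 0.0495, from 1 general pair. Of 4 measured platelet markers 3 were higher in both heart-specific pairs (75.0%, beside 24.5% of all genes). Itga2b, Gp5, Treml1 and Itgb3 were below background on all 4 heart-specific arrays. The platelet markers summed to 3552 in the general WT, 1357 in the general KO and 992 to 1576 on the heart-specific arrays, and their part in both values was not tested.

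The female and male pairs moved in opposite directions in Acta1, where the male minus the female KO effect was -1.78 (log2), and in Myh7, where it was -0.54. The same holds for the median of the fibroblast markers (-0.24) and of the cardiomyocyte markers (-0.38). These differences between the sexes were not tested, since each sex has 1 array per genotype.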

How the results depend on the processing

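The small number of arrays and the background left in the signals limit every value, and most of all those of dim genes. The number of genes past the limma adjusted p of 0.05 was 0, and 1 with the mean of kept probes (Hspb7, 0.0457) and 1 with an intensity trend (Hspb7, 0.0170). Leaving out 1 array at a time, without the pair term, gave 0 to 2 genes; the 2 were Hspb7 and Il15, without the male WT, where the lone WT array is assumed to vary like the KO arrays. The adjusted p of Hspb7 ranged from 0.0170 to 0.967 over all settings. With no replicate block it was 0 genes, and 274 instead of 459 genes had an unadjusted p under 0.05; the pairing comes from the titles. A floor of 50 gave 798 such genes. Genes with both KO above both WT numbered 2787 without a filter and 2243 with every probe on its own, and those below 3051 and 2593, because more features were counted. The difference between lines gave 15 genes with the mean of kept probes and 0 with a floor of 16, where the cause was not tested. Acta1 reversed to 0.37 and Myh7 to 0.16 without the male pair; without the female pair they were -1.41 and -0.38. Of the gene differences under settings that kept all arrays, 455 kept their direction and their side of the threshold, 2 passed it (both Hspb7) and 0 reversed. Leaving out the pair term, a knockout term for each line and an intensity trend do not change a difference, so no reversal was possible there. Most of these genes were also picked for a shared sign in both pairs, and every probe on its own was not counted. The pairs did not always stay alike. With signal above background required on all 4 arrays, they shared a sign in 36 of the 37 leading genes left. With 2 of 6 arrays required, they did so in 39 of 40. For Zfp330, whose brightest probe was below background in the female WT, the other kept probe gave opposed pairs (0.10 and -0.02). Of the list medians, 394 moved by less than the spread between pairs and 26 by more.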
